A study of Homo sapiens with 14 samples.

Results

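The transcripts described here are those of VIM, which encodes the intermediate filament protein vimentin, of the tropomyosin genes TPM1, TPM2, TPM3 and TPM4, and of the actin-binding or actin-linked proteins FLNA, ACTN1, ACTN4, MYL9 and TES. They were taken by gene symbol, and all 10 were found among 26171 genes measured in K562 and among 19196 in SIGM5. The study sequenced polyadenylated RNA from 7 groups, each with 2 libraries. Cells of the acute myeloid leukaemia line SIGM5 received the vehicle DMSO or 12.5 µM TETi76, an inhibitor of TET dioxygenases according to the series title. The K562 clone K01 (TET2+/+), from an erythroleukaemia line, received DMSO, 12.5 µM TETi76, 100 µM ascorbate, or both compounds, and the K562 clone K18 (TET2-/-) received DMSO only. All groups were treated for 24 h, in medium with serum, and both lines are suspension cell lines grown without other cell types. The 10 genes had been chosen by their measured differences in these libraries. Foremost was the higher VIM level in K01 treated with TETi76 than in its DMSO control. For that comparison no p-values are printed below, and its calls at the threshold lend no independent support.

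Vimentin assembles into intermediate filaments, is abundant in mesenchymal cells and in most white blood cells, and gives the cell mechanical resilience. Tropomyosins are coiled-coil dimers that lie along actin filaments and set which motors and severing proteins can reach them, and the genes encode many isoforms. FLNA crosslinks filaments into networks, α-actinins bundle them, MYL9 is a regulatory light chain of non-muscle and smooth-muscle myosin II, and TES encodes testin, a LIM-domain protein of focal adhesions.

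Library totals in SIGM5 were 18893636 to 23639198 counts, and the K562 libraries held an estimated 4.63 to 8.97 M reads, lowest in TETi76 with ascorbate replicate 1. Values are FPKM in K562, which are reads scaled by transcript length and depth, and CPM, counts scaled to library size with TMM factors, in SIGM5, so that levels of different genes are set side by side only in K562. At the estimated depths, 1 read per kilobase was worth 0.111 to 0.216 FPKM. Replicates correlated at 0.976 to 0.987 in K562 and at 0.994 to 0.996 in SIGM5. Since the labels do not say that replicates were separate cultures, each p-value rests on differences among libraries whose source may be technical. TET2, disrupted in K18, was measured at 3.13 ± 0.255 FPKM in K18 and 2.19 ± 0.289 in K01 (SD, n = 2), which does not test the disruption, since a disrupted gene can still be transcribed. Erythroid markers summed to 3819 to 9142 FPKM across K562 libraries and myelomonocytic markers to 19147 to 22375 CPM across SIGM5 libraries. All 8 fibroblast and stromal markers had a mean under 1 FPKM in every K562 group, their sum was 0.279 to 2.09 FPKM per library, and LUM, THY1 and FAP were listed at 0 in each K562 group. In bulk RNA, fewer cells of a type and less RNA per cell cannot be told apart.

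In K01, TETi76 was accompanied by more VIM and TPM4 RNA and less TPM1 and TES RNA. TPM4 stood 3.42-fold and VIM 2.44-fold above DMSO, whereas TPM1 and TES stood at 0.591 and 0.654 of the DMSO level. TPM3, the most abundant tropomyosin transcript, and the α-actinins ACTN1 and ACTN4 did not pass the threshold. Differences are given on the log2(FPKM + 1) scale, which understates the change of genes near 1 FPKM. limma, fitted to all genes with an adjusted p of 0.05 as the threshold, placed 3 of the 10 transcripts higher and 2 lower, where 23.3% of the 12537 genes tested passed (9.6% higher and 13.7% lower). The median of the 10 differences was 0.22 against -0.01 for all genes tested. The 10 were chosen by their differences in these libraries, so these counts, this median and the intervals below lend no independent support.

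VIM was at 266 and 300 FPKM in the DMSO libraries of K01 and at 687 and 695 under TETi76. Both TETi76 libraries lay far above both DMSO libraries, and the difference of 1.29 (SE 0.06) had a 95% confidence interval of 1.16 to 1.42. VIM-AS1, a transcribed locus that overlaps VIM on the opposite strand, was at 99.3 and 75.0 FPKM in DMSO and at 194 and 209 under TETi76, a difference of 1.21 (SE 0.14). The overlap is 1727 bases long, 641 of them in exons of both (GENCODE 29), and the library protocol does not mark strand. Reads from VIM and VIM-AS1 therefore cannot be told apart within the overlap.

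Among the tropomyosins, TPM4 was at 24.6 and 23.5 FPKM in DMSO and at 81.9 and 82.5 under TETi76. The groups were widely separated, with a difference of 1.73 (SE 0.07, 95% confidence interval 1.58 to 1.89). TPM1, whose products include long muscle-type and short isoforms, went the other way, from 26.0 and 24.4 FPKM to 15.4 and 14.4. That difference was -0.72 (SE 0.09), again without overlap. TPM3 was at 182 and 184 FPKM in DMSO and at 177 and 179 under TETi76, a difference of -0.04 (SE 0.05) that did not pass the threshold. TPM2 was low, and its replicates were far apart, at 4.46 and 2.51 FPKM in DMSO and 3.46 and 6.89 under TETi76, so that the groups overlapped.

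FLNA, the filament crosslinker, was at 106 and 96.4 FPKM in DMSO and at 123 and 118 under TETi76. The groups did not overlap, but the difference was small (0.25, SE 0.06) and it missed the threshold without DMSO replicate 2 (0.18) or without TETi76 replicate 1 (0.22) or 2 (0.28) by limma. ACTN4, an α-actinin of motile cells, was at 114 and 115 FPKM in DMSO and 130 and 132 under TETi76, a difference of 0.20 (SE 0.07) short of the threshold. Under median-ratio scaling and under quantile normalization of the libraries this ACTN4 difference passed, at 0.22 and 0.32. ACTN1 was at 32.8 and 32.9 FPKM in DMSO and 31.6 and 28.8 under TETi76 (-0.12, SE 0.09), below the threshold. TES was at 50.5 and 46.8 FPKM in DMSO and at 32.4 and 31.2 under TETi76, lower in both treated libraries by a difference of -0.60 (SE 0.08). MYL9 was low, at 1.49 and 0.328 FPKM in DMSO and 0.952 and 2.05 under TETi76. Its replicates differed more than its groups.

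**Figure D1:**
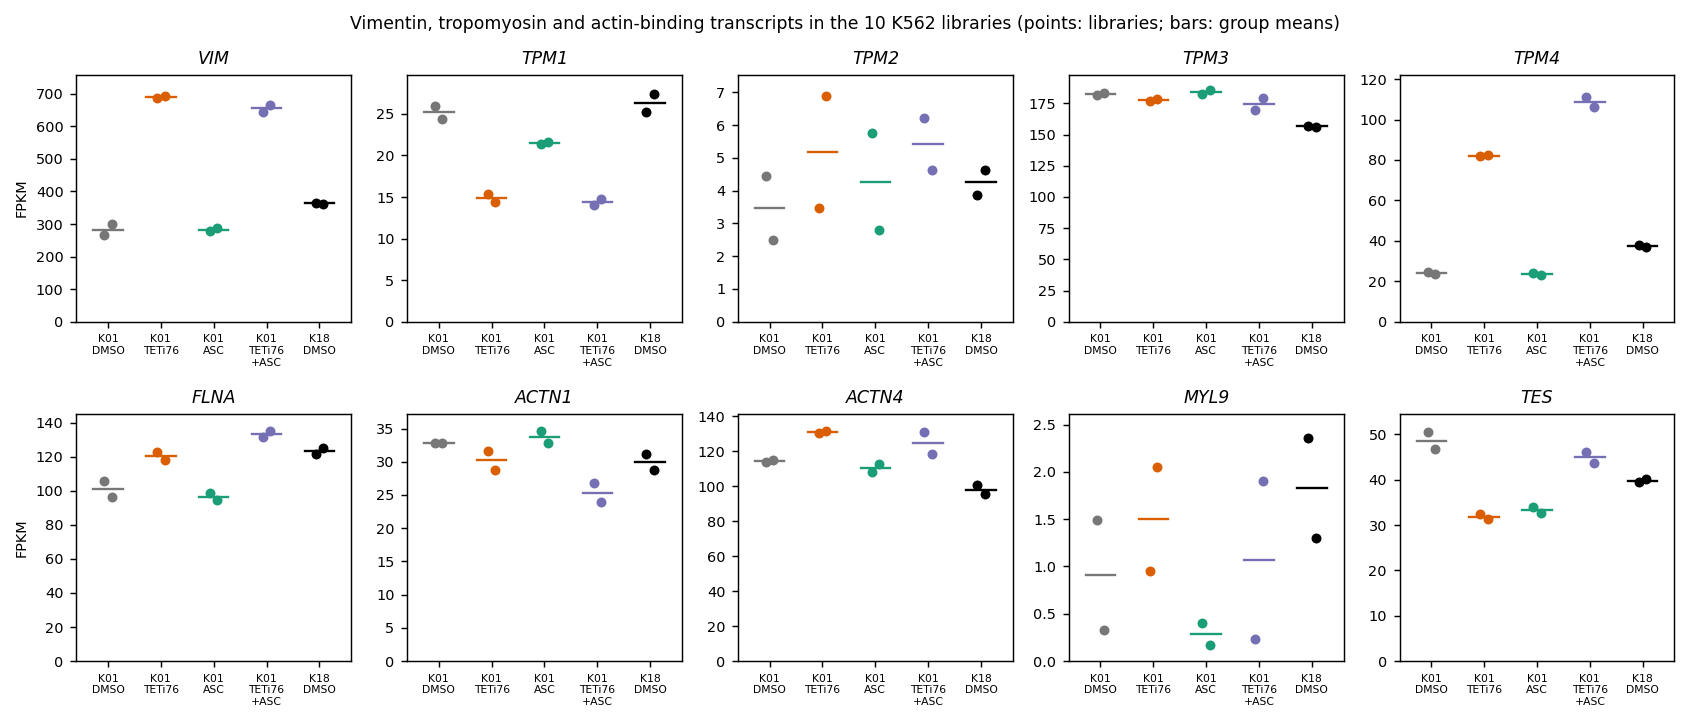
FPKM of the 10 transcripts (vertical axes, linear from 0, scaled per gene) in each of the 10 K562 libraries (points) with group means (bars, n = 2), by treatment and clone. VIM and TPM4 stand highest in the TETi76 groups with and without ascorbate, TPM1 stands lowest there, and the replicates of TPM2 and MYL9 are scattered.

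Some of these genes carry the same kind of sequence upstream of a start. The CArG box is the site of serum response factor, a transcription factor that, with the MRTF cofactors, is known to drive many actin cytoskeleton genes. Promoter windows from RefSeq on GRCh38.p14, 250 bases before to 50 bases after each annotated start, were matched for 9 of the 10 genes, in 18 windows. A CArG box on either strand was found in 4 windows, 1 each of TPM4, FLNA, TES and ACTN1, and in 1.29% of 35116 windows of all genes. The windows of TPM4, TES and ACTN1 that hold it belong to 1 of several annotated starts. The 4 sequences are shown since TPM4 and FLNA were higher and TES lower under TETi76, so that the same site was present beside differences of either sign. Each line gives 100 bases 5′ to 3′ on the gene's strand, with the CArG box in capitals.
TPM4, chr19:16067320-16067419, plus strand, box 173 to 164 bases before the start: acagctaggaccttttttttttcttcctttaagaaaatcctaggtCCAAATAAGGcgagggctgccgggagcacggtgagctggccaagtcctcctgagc
FLNA, chrX:154374674-154374773, minus strand, box 94 to 85 bases before the start: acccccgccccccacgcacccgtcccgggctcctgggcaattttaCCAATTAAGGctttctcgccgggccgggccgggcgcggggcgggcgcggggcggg
TES, chr7:116222703-116222802, plus strand, box 242 to 233 bases before the start: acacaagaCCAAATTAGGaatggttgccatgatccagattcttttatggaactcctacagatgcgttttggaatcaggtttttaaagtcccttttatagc
ACTN1, chr14:68977683-68977782, minus strand, box 171 to 162 bases before the start: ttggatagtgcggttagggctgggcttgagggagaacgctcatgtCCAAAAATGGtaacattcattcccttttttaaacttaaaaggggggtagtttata
The antioxidant response element core TGACNNNGC was found in windows of 1 gene, ACTN1, and in 13.3% of all windows, and the AP-1 site TGANTCA in windows of ACTN4 and in 7.71% of all windows. The motifs were searched on both strands, and the latter pair can share bases, since both open with TGA. A match describes the letters in the window only, and none of these libraries measured binding.

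Ascorbate alone left VIM and TPM4 RNA near their DMSO levels, and with ascorbate present TETi76 again went with higher VIM and TPM4 and lower TPM1. TES did not follow this pattern: it was lower under either compound alone and near the DMSO level under both. The comparisons of ascorbate with DMSO and of TETi76 with DMSO share the K01 DMSO libraries. TETi76 with ascorbate against ascorbate shares none with TETi76 against DMSO, but shares its ascorbate libraries with ascorbate against DMSO and its other libraries with both compounds against TETi76. In TETi76 with ascorbate against ascorbate limma called 4 of the 10 transcripts higher (VIM, TPM4, FLNA and TES) and 2 lower (TPM1 and ACTN1), where 30.7% of all genes tested passed (12.8% higher and 17.8% lower). Because earlier results of these comparisons were known when the genes were picked, the p-values describe single genes among all genes tested and lend no independent support.

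VIM was at 278 and 288 FPKM with ascorbate, within the range of the DMSO libraries (difference 0.00, SE 0.06). With both compounds it was at 644 and 666, above both ascorbate libraries by 1.21 (SE 0.06, adjusted p = 1.78e-06 by limma). The 2 libraries with both compounds lay below the 2 with TETi76 alone by -0.08 (SE 0.06, adjusted p = 0.614). VIM-AS1 was at 82.3 and 91.1 FPKM with ascorbate and 129 and 108 with both compounds, higher by 0.44 (SE 0.14, adjusted p = 0.0345). That call was kept without replicate 2 of both compounds and lost without each of the other 3 libraries (0.32 to 0.51, adjusted p = 0.0658 to 0.178). VIM-AS1 was lower with both compounds than with TETi76 alone (-0.77, SE 0.14, adjusted p = 0.0474), although this call was lost without any 1 of the 4 libraries (adjusted p = 0.0597 to 0.189). The test of whether ascorbate altered its TETi76 difference gave -0.77 (SE 0.19, adjusted p = 0.134).

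TPM4 was at 24.1 and 23.2 FPKM with ascorbate, beside DMSO (difference -0.02, SE 0.07). It reached 111 and 106 with both compounds, the highest values of any K562 group and 4.59-fold above ascorbate (difference 2.15, SE 0.07, adjusted p = 2.50e-07 by limma). Both libraries exceeded both TETi76 libraries, by 0.40 (SE 0.07, adjusted p = 0.0431), a call lost without any 1 of the 4 libraries (adjusted p = 0.111 to 0.182), and the interaction of TETi76 with ascorbate was 0.42 (SE 0.10, adjusted p = 0.109). TPM1 was at 21.4 and 21.6 FPKM with ascorbate, below both DMSO libraries but not past the threshold (-0.22, SE 0.09, adjusted p = 0.386). With both compounds it was at 14.1 and 14.7, below ascorbate by -0.55 (SE 0.09, adjusted p = 0.00204). TPM3 was at 182 and 185 with ascorbate and 170 and 180 with both compounds (-0.07, SE 0.05, adjusted p = 0.302).

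The make-up of tropomyosin RNA differed accordingly, as shares of the summed FPKM of the 4 genes. TPM4 made up 10.2% ± 0.237 (SD, n = 2) in DMSO and 10.1% ± 0.260 with ascorbate. It made up 29.4% ± 0.210 with TETi76 and 35.9% ± 1.46 with both compounds, and in K18 it was 16.7% ± 0.256. The groups with TETi76 were thus well apart from those without. TPM3 held most of the sum in every group, 77.6% ± 1.17 in DMSO, 63.5% ± 0.303 with TETi76 and 57.6% ± 1.74 with both compounds. The share of TPM1 was 10.7% ± 0.361, 5.32% ± 0.331 and 4.75% ± 0.110 in these 3 groups. The sum itself was 235.5 ± 2.22 FPKM in DMSO, 280.1 ± 3.55 with TETi76 and 303.0 ± 3.11 with both compounds. These shares count gene-level FPKM and do not separate the isoforms of a gene.

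**Figure D2:**
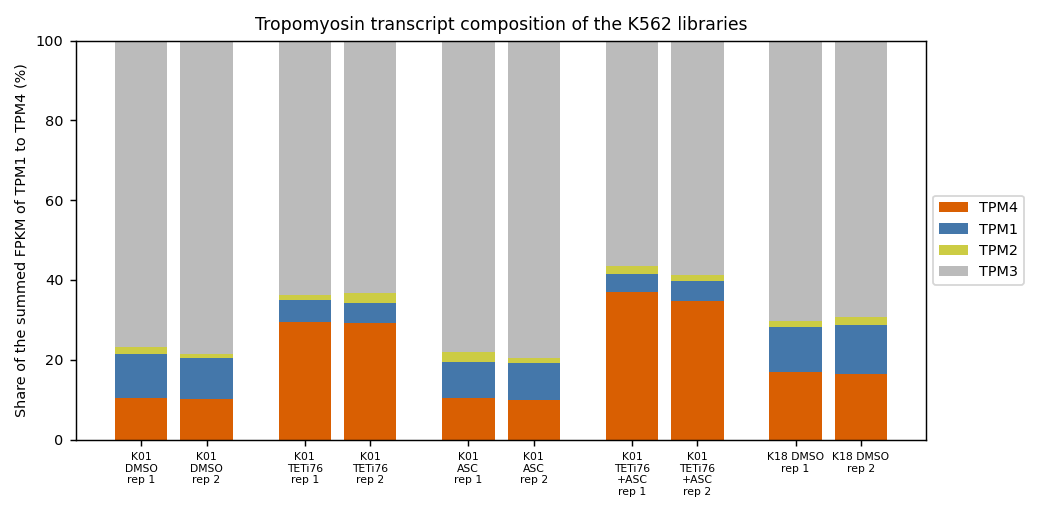
Share of each tropomyosin gene in the summed FPKM of TPM1 to TPM4 (vertical axis, percent) in each K562 library (1 stacked bar per library). TPM4 takes 9.96% to 10.4% in the DMSO and ascorbate libraries of K01, 16.5% to 16.9% in K18 and 29.2% to 36.9% in the libraries with TETi76.

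FLNA was at 98.5 and 94.9 FPKM with ascorbate and at 131 and 135 with both compounds, with no overlap. The difference was 0.46 (SE 0.06, adjusted p = 0.00077 by limma), and both libraries also lay above both TETi76 libraries (0.14, SE 0.06, adjusted p = 0.346). ACTN1, an α-actinin of stress fibres and adhesions, was at 34.6 and 32.8 FPKM with ascorbate and at 26.8 and 24.0 with both compounds, lower by -0.40 (SE 0.09, adjusted p = 0.0102). Without ascorbate replicate 1 the ACTN1 difference was -0.36 (adjusted p = 0.0594), and without replicate 2 of both compounds it was -0.32 (adjusted p = 0.0598). ACTN4 was at 108 and 113 FPKM with ascorbate and 131 and 118 with both compounds, a difference of 0.17 (SE 0.07, adjusted p = 0.0754) that passed under median-ratio scaling (adjusted p = 0.0447) and quantile normalization (adjusted p = 0.0028). It also passed without replicate 2 of both compounds (0.25, adjusted p = 0.0368).

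TES was at 34.0 and 32.7 FPKM with ascorbate and at 46.2 and 43.7 with both compounds. Its libraries thus fell into a higher set, with DMSO or both compounds, and a lower set, with 1 compound alone, that did not overlap. Ascorbate against DMSO gave -0.53 (SE 0.08, adjusted p = 0.0232 by limma), and TES was the only one of the 10 called there, where 0.479% of all genes passed (0.168% higher and 0.311% lower). Both compounds exceeded ascorbate by 0.42 (SE 0.08, adjusted p = 0.00313) and TETi76 by 0.49 (SE 0.08, adjusted p = 0.0317). TES and TPM4 were the 2 of the 10 called between both compounds and TETi76 alone, where 0.734% of all genes passed (0.247% higher and 0.487% lower). The TETi76 difference with ascorbate exceeded that without by 1.02 (SE 0.11, adjusted p = 0.0109), 1 of 10 called in an interaction that 0.63% of genes passed (0.279% higher and 0.351% lower). TES fell short of the threshold in the comparison of ascorbate with DMSO without any 1 of its 4 libraries (adjusted p = 0.124 to 0.18), and likewise in that of both compounds with TETi76 (adjusted p = 0.0796 to 0.152). The interaction fell short without DMSO replicate 1 (0.96, adjusted p = 0.0576), TETi76 replicate 1 (1.04, 0.052) or ascorbate replicate 2 (0.99, 0.0513).

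TPM2 and MYL9 passed in none of the 6 K562 comparisons at the threshold of limma. TPM2 was at 5.76 and 2.79 FPKM with ascorbate and 6.21 and 4.63 with both compounds, and its differences ran from -0.11 to 0.44 with an adjusted p of at least 0.414. MYL9 was at 0.405 and 0.173 FPKM with ascorbate and 0.237 and 1.91 with both compounds. Its differences ran from -0.50 to 0.61 with SEs of 0.46 or more, which leaves room for changes of either sign.

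**Figure D3:**
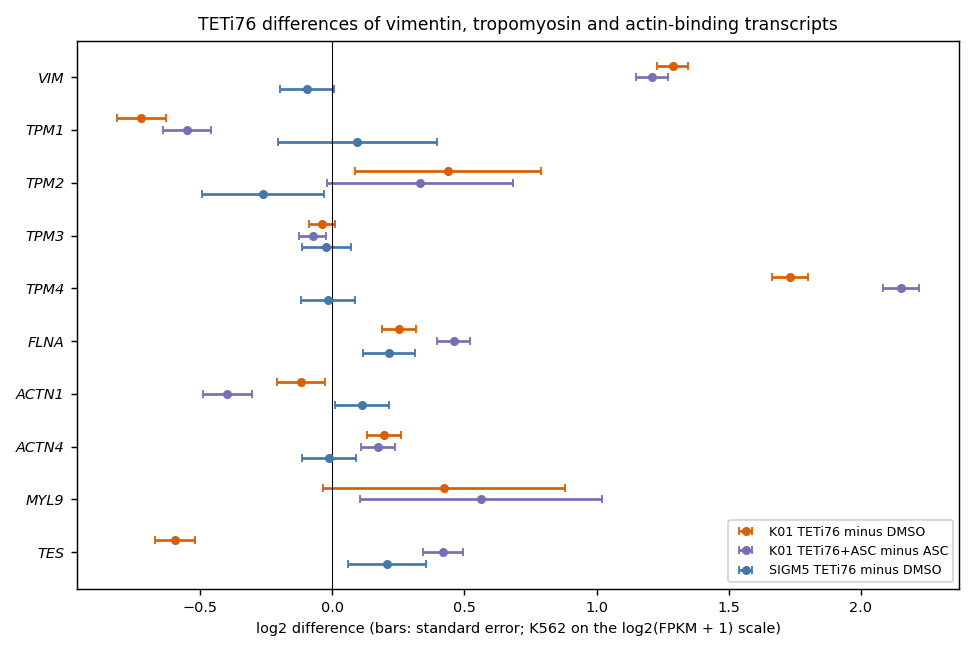
Log2 differences with TETi76 (horizontal axis, points; bars are standard errors) of the 10 transcripts in K01 without ascorbate, K01 with ascorbate and SIGM5 (9 transcripts, MYL9 not tested). VIM and TPM4 lie at 1.21 to 2.15 in K01 and near 0 in SIGM5, and TES lies on opposite sides of 0 in K01 without and with ascorbate.

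In the TET2-/- clone K18, VIM, TPM4 and FLNA RNA were higher and TPM3 and TES RNA lower than in K01, both in DMSO. limma called these 3 higher and 2 lower of the 10, where 15.1% of all genes tested passed (6.84% higher and 8.21% lower). Each genotype was 1 clone, so that genotype and clone cannot be told apart, and the K01 DMSO libraries are those used above. Erythroid markers summed to 3819 to 3974 FPKM in K18 and 7387 to 8609 in K01 DMSO, and epithelial markers to 22.6 to 22.7 against 41.7 to 49.4. Megakaryocyte markers summed to 10.7 to 11.6 FPKM in K18 and 2.85 to 3.87 in K01 DMSO, with GP9, PF4 and PPBP listed at 0 in both groups. Most of that sum was ITGA2B, at a mean of 9.53 FPKM in K18 and 2.45 in K01. The part of these markers in the differences was not tested.

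VIM was at 365 and 362 FPKM in K18, above both K01 libraries by 0.36 (SE 0.06, adjusted p = 0.00358 by limma). VIM-AS1 was at 136 and 157 (0.75, SE 0.14, adjusted p = 0.00623), and missed the threshold without K18 replicate 2 (0.65, adjusted p = 0.0591). TPM4 was at 37.7 and 37.2, above K01 by 0.62 (SE 0.07, adjusted p = 0.000452). These 2 genes kept their call without any 1 of the 4 libraries (VIM 0.28 to 0.45, TPM4 0.59 to 0.65). TPM1 was at 25.2 and 27.4, overlapping K01, and TPM2 at 3.88 and 4.62. TPM3 was at 157 and 156 FPKM, lower by -0.22 (SE 0.05, adjusted p = 0.0187). FLNA was at 122 and 126, higher by 0.29 (SE 0.06, adjusted p = 0.0168), and TES at 39.4 and 40.2, lower by -0.28 (SE 0.08, adjusted p = 0.0366). None of the groups of these 3 genes overlapped, yet the calls were weak. TPM3 and TES lost theirs without any 1 of the 4 libraries (adjusted p = 0.0714 to 0.11 and 0.0755 to 0.195) and under quantile normalization (-0.09 and -0.23). FLNA lost its call without K01 replicate 2 (0.22, adjusted p = 0.115), K18 replicate 1 (0.31, 0.0684) or K18 replicate 2 (0.27, 0.116). ACTN4 was at 101 and 95.3 FPKM, below K01 by -0.22 (SE 0.07, adjusted p = 0.052). ACTN1 was at 31.1 and 28.8 and MYL9 at 2.36 and 1.3.

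In SIGM5, none of the 9 transcripts tested was called between TETi76 and DMSO by edgeR's quasi-likelihood test or by DESeq2, where edgeR called 4.13% of 11340 genes (2.58% higher and 1.54% lower). At an unadjusted p of 0.05, edgeR had 1 (FLNA) and DESeq2 had 0. The log2 differences ran from -0.26 to 0.21. MYL9 had 1 count in each of the 4 libraries and was not tested.

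VIM was at 258 and 285 CPM in DMSO (4812 and 6126 counts) and at 258 and 251 under TETi76 (6162 and 5768 counts). Both treated libraries lay just below the lower control, with a difference of -0.10 (SE 0.10, adjusted p = 0.71 by edgeR). TPM4 was at 221 and 207 CPM in DMSO and at 208 and 215 under TETi76, overlapping (-0.02, SE 0.10, adjusted p = 0.969). TPM3 was at 1073 and 1120 CPM in DMSO and 1084 and 1076 under TETi76 (-0.02, SE 0.09). TPM1 had 38 and 63 counts in DMSO and 53 and 72 under TETi76, and TPM2 had 79 and 115 against 85 and 103, and neither was called. FLNA was at 2246 and 1828 CPM in DMSO and 2344 and 2380 under TETi76, higher in both treated libraries (0.21, SE 0.10, adjusted p = 0.278). Without DMSO replicate 1 FLNA was called (0.37, adjusted p = 0.00293). ACTN1 was at 326 and 301 CPM against 326 and 351 (0.11, SE 0.10), and ACTN4 at 336 and 297 against 306 and 322 (-0.01, SE 0.10). TES was at 15.8 and 17.7 CPM in DMSO and 17.5 and 21.2 under TETi76 (0.21, SE 0.15, adjusted p = 0.536), overlapping.

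**Figure D4:**
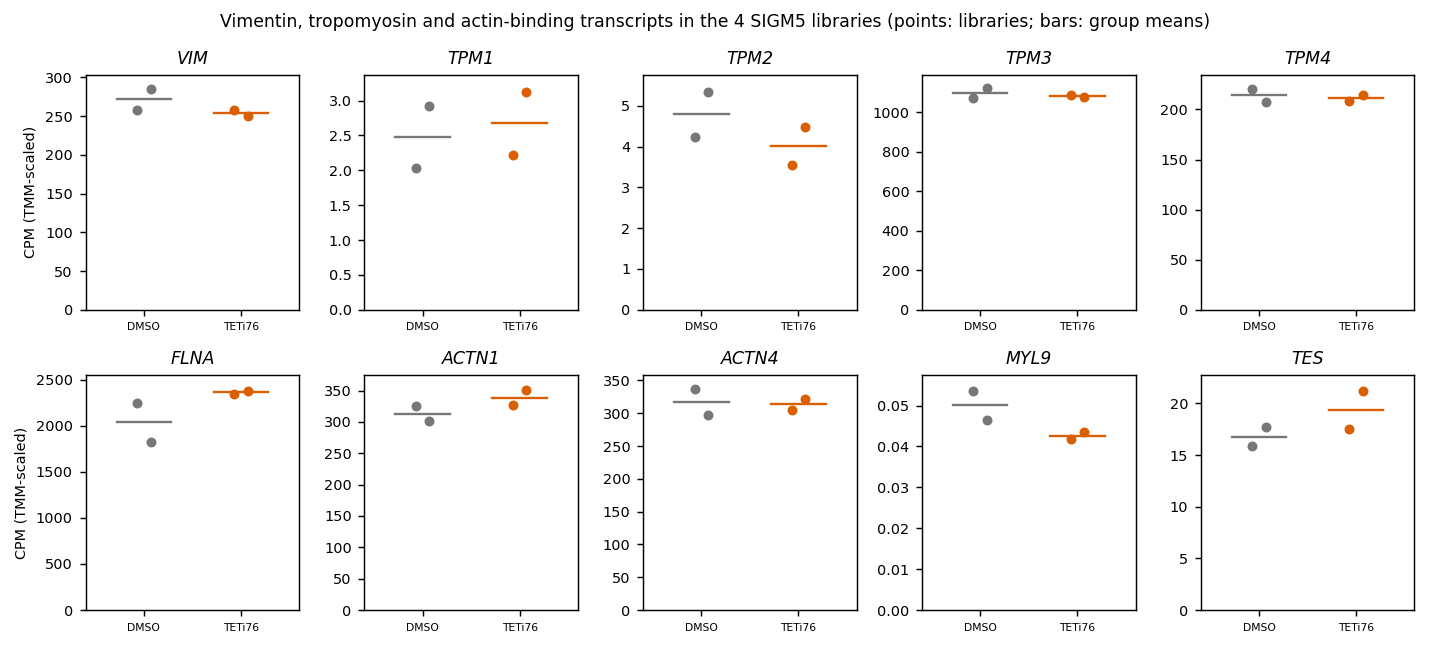
CPM (vertical axes, linear from 0, scaled per gene) of the 10 transcripts in the 4 SIGM5 libraries (points) with group means (bars, n = 2). VIM, TPM3 and TPM4 differ by a few percent between DMSO and TETi76, and MYL9 rests on 1 count per library.

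The TETi76 difference in K01 was set against that in SIGM5, each from its own fit, over 9739 genes tested in both. VIM, TPM4 and TES were the 3 of 9 that passed in this comparison, which 12% of genes passed (4.91% higher and 7.13% lower in K01). The K01 comparison that enters it is the one in view when the genes were picked, so these 3 are given as differences. VIM had 1.38 (SE 0.12) more in K01 and TPM4 1.75 (SE 0.12), while TES had -0.80 (SE 0.17). TES missed the threshold without SIGM5 TETi76 replicate 2 (-0.66). TPM1 was short of the threshold at -0.82 (SE 0.31) and passed without SIGM5 DMSO replicate 2 (-1.10). FLNA had nearly equal differences in both lines (0.04, SE 0.12).

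Of 12536 other genes, those whose log2(FPKM + 1) followed VIM most closely over the 10 K562 libraries were FTH1 (Pearson r = 0.994), the ferritin heavy chain; MALAT1 (0.993), a nuclear long non-coding RNA; ZNF117 (0.986); LATS1 (0.985), a kinase of the Hippo pathway; and PTMS (0.984), parathymosin. TPM4 came 15th at 0.978. FLNA had 0.783, VIM-AS1 0.715, ACTN4 0.686, TES -0.21, ACTN1 -0.73 and TPM1 -0.89. All genes share the same libraries, which fall into 4 with TETi76 and 6 without, and the values are given as descriptions only.

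Other genes of the cytoskeleton were taken from 10 lists of 125 genes in all, compiled by role with earlier results of these data known. In K01 under TETi76, 28 of the 98 tested were higher and 18 lower at the threshold of limma, with a median of 0.13, beside 9.6% higher and 13.7% lower among all genes tested. With ascorbate present in both arms 37 were higher and 17 lower, beside 12.8% and 17.8%. The counts by list that follow are to be read against these shares, and several lists have few genes. The cytoplasmic actins ACTB and ACTG1, both tested and both called, were higher by 0.48 (SE 0.04) and 0.47 (SE 0.04) without ascorbate. ACTB stood at 1368 ± 58.6 FPKM in DMSO and 1906 ± 35.3 under TETi76 (SD, n = 2), and ACTG1 at 503 ± 3.25 and 697 ± 13.03. With ascorbate present they were higher by 0.30 (SE 0.04) and 0.58 (SE 0.04). Actin-turnover genes had 7 of 18 higher and 1 lower, among them GSN, which encodes the severing protein gelsolin, at 1.45 (SE 0.11). Focal adhesion and LIM genes had 6 of 14 higher and 2 lower, with EVL, an Ena/VASP protein, at -1.13 (SE 0.15). The Arp2/3 and nucleator list had 2 of 20 higher and 2 lower.

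Intermediate filament genes other than VIM had 5 of 9 higher and 3 lower in K01 under TETi76. The keratins KRT19 and KRT8 were among the higher, at 1.48 (SE 0.09) and 1.45 (SE 0.06), KRT8 reaching 522 FPKM from 191. With ascorbate in both arms, KRT8 and KRT19 were higher by 1.39 (SE 0.06) and 1.37 (SE 0.09), and DES, the desmin gene, was lower by -1.45 (SE 0.15). The list of spectrins and other cortex proteins had 3 of 12 higher and 5 lower. Its erythroid members SPTB and ADD2, which encode β-spectrin and β-adducin of the red-cell membrane skeleton, were lower by -1.25 (SE 0.11) and -1.32 (SE 0.17), while SPTAN1, the non-erythroid α-spectrin, was higher by 1.04 (SE 0.13). With ascorbate in both arms SPTAN1 was higher by 1.39 (SE 0.13), and SPTB and ADD2 lower by -1.38 (SE 0.11) and -1.34 (SE 0.17). Summed erythroid markers were 7387 to 8609 FPKM in DMSO and 7269 to 7572 under TETi76, and their part in these differences was not tested. Non-muscle myosin II chains had 0 of 6 higher and 2 lower, against 3 at an unadjusted p of 0.05 either way. The calponin and contractile list had 1 of 8 higher and 2 lower, and the other filamins, α-actinins and bundlers 1 of 6 in each direction.

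**Figure D5:**
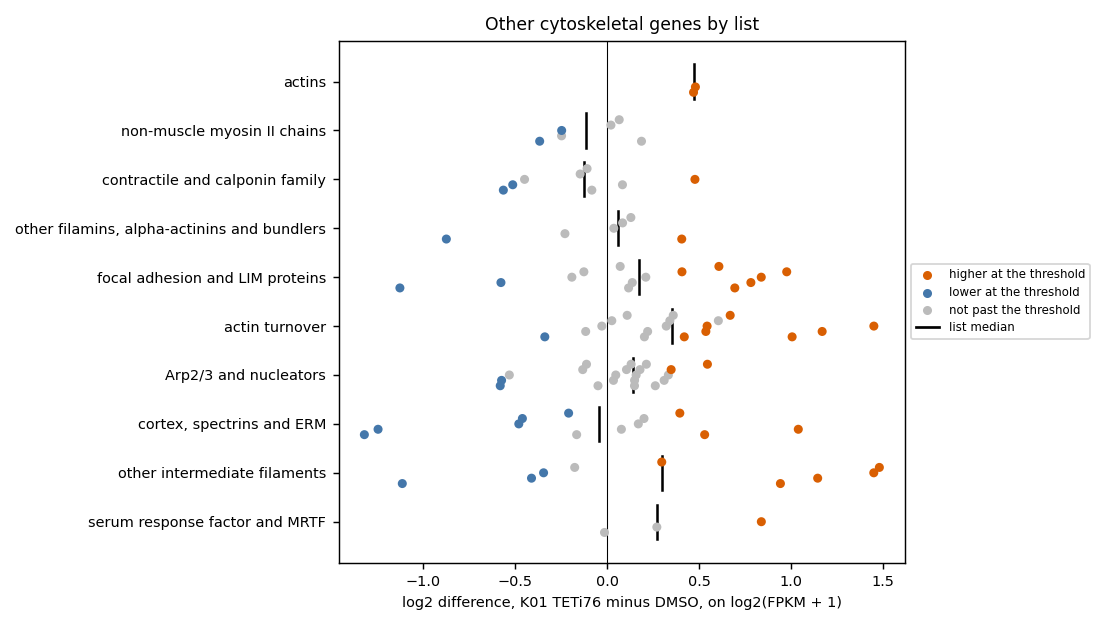
Log2 differences of K01 TETi76 minus DMSO (horizontal axis) of the tested genes of 10 cytoskeletal lists (rows; 1 point per gene, coloured by its call at the threshold; vertical bars are list medians). Actins and actin-turnover genes lie mostly to the right of 0, whereas spectrin and intermediate filament genes lie on both sides.

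The last list holds serum response factor and its cofactors, with 1 of 3 tested genes higher in K01 under TETi76. SRF was at 16.8 FPKM in DMSO and 20.4 under TETi76 (0.27, SE 0.11), and MKL2, an MRTF gene, at 2.73 and 2.69, both short of the threshold. MKL1, the other MRTF gene tested, was at 4.8 and 9.40 FPKM, higher by 0.84 (SE 0.16), and with ascorbate in both arms by 0.68 (SE 0.16, adjusted p = 0.011 by limma).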

How the data were processed

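Per the submitters' processing notes, the hg19 genome, STAR (no version), edgeR 3.24.3 and limma 3.38.3 were used; the program that made each table is not given in the sources used here. The authors deposited SIGM5 values as raw counts per gene, and K562 values as FPKM, which cannot be told apart from RPKM. For all 14 libraries the deposited matrix column and single-library file held equal values.

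For counts, edgeR 4.0.16 was used, with its quasi-likelihood test, TMM factors and filterByExpr (11340 genes). For FPKM, limma 3.58.1 was fitted once to the 10 K562 libraries as log2(FPKM + 1), with trended and robust variance, on 12537 genes that reached 1 FPKM in at least 2 libraries. In K562, 26 entries without a gene name and 2269 short-RNA entries were left out. The planned tests fitted these units. Differences between lines used Satterthwaite degrees of freedom. All p-values are two-sided and were adjusted over all genes of a comparison by Benjamini-Hochberg, with a threshold of 0.05. Scripts were tested on simulated data. K562 depth was estimated from the FPKM steps of genes with few reads. Alternatives were DESeq2 1.42.0, other scalings, filters and pseudocounts, a replicate block, fits of only the groups compared, and each library left out.

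The 10 genes, the wider lists and the marker lists were chosen with earlier results of these data known. Beyond the 10 genes, those named are antisense genes, ACTB, ACTG1, SRF, MKL1, MKL2, the 5 genes most like VIM, and up to 3 called list genes per direction and comparison with the largest change and a mean of at least 10 FPKM or CPM. SPTAN1 without ascorbate, KRT8 in K18, and GSN and DES in SIGM5 did not meet that rule and are named after their values were seen. A further gene that met the rule is not reported here. ACTN1-AS1 was listed at 0 in all K562 libraries.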

Additional observations from a re-analysis of the deposited data

Results flagged for a closer look

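The TETi76 difference between K01 and SIGM5 was past the threshold for 3 of the 9 genes tested in both, where 12% of 9739 genes passed. It was 1.38 (SE 0.12) for VIM and 1.75 (SE 0.12) for TPM4, both more positive in K01, and -0.80 (SE 0.17) for TES, more negative in K01, on the log2 scale. In K01 both TETi76 libraries lay above both DMSO libraries for VIM and TPM4, whereas in SIGM5 the TPM4 groups overlapped and both TETi76 libraries lay below both DMSO libraries for VIM. TES missed the threshold without SIGM5 TETi76 replicate 2 (-0.66). The 2 tables were normalized separately and on different scales, and the K01 comparison was in view when the genes were picked.

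TES also differed between the TETi76 differences with and without ascorbate in K01, by 1.02 (SE 0.11, adjusted p = 0.0109 by limma). TETi76 went with less TES RNA without ascorbate and with more in its presence. That test missed the threshold in 3 of the 8 analyses that left out 1 library (adjusted p = 0.0203 to 0.0576).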

How the results depend on the processing

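Of 10 genes, the number called changed by over 1.5 times in some settings. TETi76 with ascorbate against TETi76 had 2, and 1 without a filter on low values, 1 with the replicate block and 0 in a fit of only the groups compared. Ascorbate against DMSO had 1, and 0 in a fit of only the groups compared. K18 against K01 had 5, and 3 with quantile normalization. Without each library in turn, the counts were 0 to 0 for ascorbate against DMSO and for both compounds against TETi76, 0 to 1 for the interaction, 2 to 3 for K18 against K01, and 0 to 1 in SIGM5. A lone library was then assumed to vary like the other groups; these fits also hold fewer libraries, and other causes were not tested. The direction turned for values near 0. VIM with ascorbate against DMSO was -0.0023 under median-ratio scaling and ran from -0.085 to 0.087 without each library, and TPM4 there from -0.056 to 0.0078. TPM3 was 0.042 (TETi76 against DMSO) and 0.11 (both compounds against ascorbate) with quantile normalization. In SIGM5, TPM4 ran from -0.073 to 0.033 and ACTN4 from -0.11 to 0.083, and the FLNA difference between lines from -0.12 to 0.19. VIM, TPM4, TPM1 and TES under TETi76 in K01, with and without ascorbate, kept direction and side of the threshold in every setting run.

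The replicate numbers did not pair the libraries: deviations of same-numbered libraries correlated at -0.02 to 0.05 in K562 and -0.24 in SIGM5. As a hint of crossed numbers, chosen after seeing the data, a crossed block in SIGM5 called 1291 genes and 0 of the 9, against 468 and 0. The replicate block called 444 there, and in K01 TETi76 against DMSO 2756 against 2921. Over all genes, SIGM5 had 738 calls without a filter. K01 TETi76 called 1428 higher and 1383 lower with quantile normalization, against 1204 and 1717, and the interaction 38 and 26 against 35 and 44. In fits of only the groups compared, ascorbate against DMSO called 13 genes against 60, both compounds against TETi76 5 against 92, and the interaction 29 against 79; the replicate block gave 46 for the interaction. Without each library, the calls over all genes ran from 110 to 1206 in SIGM5, 1669 to 1787 for TETi76 against DMSO in K01, 0 to 6 for ascorbate, 2 to 62 for both compounds against TETi76, 0 to 71 for the interaction, 720 to 966 for K18 and 522 to 1483 between lines. In K562, TPM2 and MYL9 had SEs of at least 0.35 and 0.46, whose cause was not tested.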

Other observations

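In K18 against K01, 14 of the 98 other cytoskeletal genes were higher and 20 lower by limma, with a median of -0.04, beside 6.84% higher and 8.21% lower among all genes tested. HCLS1, a cortactin-like protein of blood cells, rose by 2.01 (SE 0.21, adjusted p = 0.000367), from 7.11 to 31.4 FPKM, and CAPG, a capping protein of macrophages, by 1.08 (SE 0.12, adjusted p = 0.000452). The keratins went apart: KRT19 was higher by 1.03 (SE 0.09), while KRT10 was lower by -1.60 (SE 0.10) and KRT8 lower by -0.71 (SE 0.06). ADD2, the β-adducin gene, was lower by -0.73 (SE 0.17, adjusted p = 0.0209), among 7 of 12 cortex genes lower and 0 higher. ACTG1 was higher by 0.46 (SE 0.04), and ACTB was not called (0.09, SE 0.04, adjusted p = 0.154).

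Ascorbate against DMSO called 0 of these 98 genes by limma (15 at an unadjusted p of 0.05), beside 0.479% of all genes tested. Both compounds against TETi76 called 1, ACTG1 (0.28, SE 0.04, adjusted p = 0.0317 by limma), beside 0.734% of all genes tested. In SIGM5, 2 of 96 were higher and 1 lower by edgeR, beside 2.58% and 1.54% of all genes tested. PDLIM7 met the rule for named genes, while GSN and DES are named here after their values were seen. GSN was at 9.29 CPM under TETi76 and 4.10 in DMSO (1.18, SE 0.19, adjusted p = 0.000477), and PDLIM7, a LIM-domain adaptor, at 31.5 and 18.6 (0.76, SE 0.14, adjusted p = 0.00129). DES was at 0.383 and 1.35 CPM (-1.80, SE 0.48, adjusted p = 0.0345 by edgeR), a call that rests on few reads. GSN and DES both lay under the mean of 10 CPM set for named genes.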
